A study of Homo sapiens with 12 samples.

Results

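HOXA3, HOXA4, HOXA5, HOXA6, HOXA7, HOXA9 and HOXA10 of the HOXA cluster, their DNA-binding cofactors MEIS1 and PBX3, and the transcription factor gene MEF2C were described in 2 human acute lymphoblastic leukaemia cell lines. These 10 genes were taken by symbol from 60664 genes in a table of RNA-seq counts, and all 10 were found. RS4;11 is a line with a translocation that joins KMT2A to AFF1, and TOM-1 is a Philadelphia chromosome-positive line. Poly(A) RNA was sequenced from each line after 24 h in control culture or with ADI-PEG20 (pegylated arginine deiminase, which depletes arginine outside cells) at 1000 ng/ml. The 4 groups were RS4;11 control, RS4;11 with ADI-PEG20, TOM-1 control and TOM-1 with ADI-PEG20, with 3 libraries in each. Both lines were labelled as wild-type lymphoblasts from blood and grew in RPMI with 20% fetal bovine serum. Each line stands for 1 patient's leukaemia, so a difference between them cannot be told apart from any other difference between these lines. The sources do not say whether replicates were separate cultures, and p-values then measure only the spread between these libraries, which may be technical.

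HOX genes encode homeodomain transcription factors that are arranged in clusters and used in early blood progenitors, where the HOXA group is switched down as cells mature. HOX proteins bind DNA together with the TALE homeodomain proteins of the PBX and MEIS families. KMT2A is a histone methyltransferase that maintains HOX expression, and its leukaemic fusions are known to keep HOXA9, HOXA10 and MEIS1 on through the super elongation complex and DOT1L. MEF2C is a factor of B-cell and myeloid progenitors that is also a known target of these fusions.

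Library depth ran from 18958144 to 35956959 counts. TOM-1 control replicate 3 stood apart from the other 11 libraries, with reads in 14963 genes against 19857 to 21997, and with 19.75% of its counts in ribosomal protein genes against 5.91% to 9.89%. Results that rest on the TOM-1 controls or on the shared estimate of spread are therefore given with and without it. The lymphoblast label was checked against 10 B-lineage markers, and all 10 had reads in every library. In RS4;11 control 2 of these were called higher and 4 lower, where 18.4% and 16.2% of 17349 tested genes were. Their fitted log2 differences ran from -5.50 to 0.86. Without TOM-1 control replicate 3, 2 were called higher and 6 lower, where 27.5% and 25.4% of tested genes were. PAX5, the factor that commits cells to the B lineage, stood at 705.9 ± 62.9 CPM (counts relative to library size, with TMM scaling) in RS4;11 control and 773.5 ± 286.5 CPM in TOM-1 control (SD, n = 3). Summed over the 10, the B-lineage level was 2867 to 3098 CPM in RS4;11 control and 6793 to 8443 CPM in TOM-1 control, so it moved with the line, and its part in the differences between the lines was not tested. Summed over 10 myeloid markers the level was 31.15 to 36.42 CPM in RS4;11 control, 31.73 to 36.91 CPM in treated RS4;11, 31.87 to 47.56 CPM in TOM-1 control and 22.81 to 33.67 CPM in treated TOM-1. Single myeloid markers moved with the line in both directions. In RS4;11 control 2 of 6 tested were called higher and 2 lower, where 18.4% and 16.2% of 17349 tested genes were. CSF1R stood at 16.7 against 4.21 CPM and LYZ at 0.872 CPM against 0, whereas MPO stood at 0.427 against 15.3 CPM and CSF3R at 0 against 2.81 CPM. LYZ and CSF3R, at 0 in the controls of the line where they were lower, could hardly fail to differ once tested. The part of the myeloid markers in the differences between the lines was not tested. The granule genes ELANE and PRTN3 were at 0 in every library. The 10 T-cell markers summed to at most 2.073 CPM in any library, and 3 of them were at 0 throughout.

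Promoter sequences are shown for HOXA9, HOXA10 and MEIS1, which had reads in RS4;11 and none in TOM-1, and for PBX3, which had reads in both lines. The windows are from RefSeq on GRCh38.p14 and run from 250 bases before to 50 bases after an annotated start. They are printed 5′ to 3′ on the gene's strand, with capitals marking CG dinucleotides, the sites of DNA methylation. The HOXA9 window is chr7:27165488-27165787 on the minus strand, the HOXA10 window chr7:27179812-27180111 on the minus strand, the MEIS1 window chr2:66434875-66435174 on the plus strand and the PBX3 window chr9:125747933-125748232 on the plus strand.
HOXA9: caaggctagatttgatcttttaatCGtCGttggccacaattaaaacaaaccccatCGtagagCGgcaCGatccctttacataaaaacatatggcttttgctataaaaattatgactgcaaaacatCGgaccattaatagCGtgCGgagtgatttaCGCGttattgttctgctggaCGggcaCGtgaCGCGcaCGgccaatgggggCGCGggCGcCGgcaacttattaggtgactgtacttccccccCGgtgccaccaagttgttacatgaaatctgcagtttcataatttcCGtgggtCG
HOXA10: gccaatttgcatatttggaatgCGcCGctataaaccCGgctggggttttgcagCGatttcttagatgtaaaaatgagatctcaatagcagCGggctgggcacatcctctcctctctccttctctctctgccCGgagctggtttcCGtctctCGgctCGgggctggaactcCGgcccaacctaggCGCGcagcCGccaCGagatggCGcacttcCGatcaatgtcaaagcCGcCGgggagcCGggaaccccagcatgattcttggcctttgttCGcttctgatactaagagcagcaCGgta
MEIS1: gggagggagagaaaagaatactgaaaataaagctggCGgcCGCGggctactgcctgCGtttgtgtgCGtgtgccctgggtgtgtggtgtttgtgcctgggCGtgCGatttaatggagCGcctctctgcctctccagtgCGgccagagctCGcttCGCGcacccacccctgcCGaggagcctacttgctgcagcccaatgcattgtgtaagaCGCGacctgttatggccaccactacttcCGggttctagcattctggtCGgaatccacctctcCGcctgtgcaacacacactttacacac
PBX3: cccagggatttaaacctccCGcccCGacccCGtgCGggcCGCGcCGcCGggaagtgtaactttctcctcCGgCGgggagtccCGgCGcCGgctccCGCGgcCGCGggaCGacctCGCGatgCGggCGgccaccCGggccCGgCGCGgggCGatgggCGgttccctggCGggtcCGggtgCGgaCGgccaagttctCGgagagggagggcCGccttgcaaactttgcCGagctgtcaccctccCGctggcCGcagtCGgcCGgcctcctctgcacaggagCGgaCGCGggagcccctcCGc

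The 4 windows differed in their density of CG. PBX3 had 43 CG dinucleotides in 300 bases, more than 95% of the 35116 windows in the table, whose median was 14. HOXA9 had 22, HOXA10 had 21 and MEIS1 had 18, more than 62.3%, 60.5% and 55.5% of windows. Of the 10 genes 9 had an entry, with 22 windows in all, and HOXA5 had none. The letters TATAAA on either strand, the core of a TATA box, were present in 4 of the 22 windows, those of HOXA9, both windows of HOXA10 and 1 of HOXA3, and in 11.5% of all windows. CCAAT was present in 9 of the 22 and in 34.6% of all windows. TGACAG, the core of MEIS binding sites, was present in 5 of the 22, among them PBX3 and HOXA4, and in 15.8% of all windows. TGATTTAT, a joint site of PBX and HOX proteins, was in 0 of the 22 and in 0.8% of all windows. Each motif was searched on both strands and scored as present or absent in each window. A match is a description of the letters, and no binding or methylation was measured.

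The first comparison asked how far the lines differed in control culture. HOXA7, HOXA9, HOXA10 and MEIS1 were on in RS4;11 and had 0 counts in all 6 TOM-1 libraries. HOXA3, HOXA4, HOXA5, HOXA6 and PBX3 were 10-fold to 46.5-fold higher in RS4;11, and MEF2C was 1.86-fold higher. All 10 genes were called higher in RS4;11 in control culture (edgeR quasi-likelihood test, Benjamini-Hochberg adjusted p under 0.05), where 18.4% of 17349 tested genes were. With ADI-PEG20 all 10 were again called higher, where 24% of tested genes were. Without TOM-1 control replicate 3, all 10 were called higher in both conditions, where 27.5% and 31.5% of 18321 tested genes were. The libraries of the lines did not overlap for any of the 10 in either condition, in the direction of 24.4% and 34.9% of tested genes. Of the 10, HOXA5, PBX3 and MEF2C had enough reads in TOM-1 alone to enter the test. The other 7 entered it only through their RS4;11 libraries and could hardly fail to differ, so the count of 10 carries no weight of its own. In RNA from whole cultures, fewer cells with a transcript and less of it per cell cannot be told apart.

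**Figure D1:**
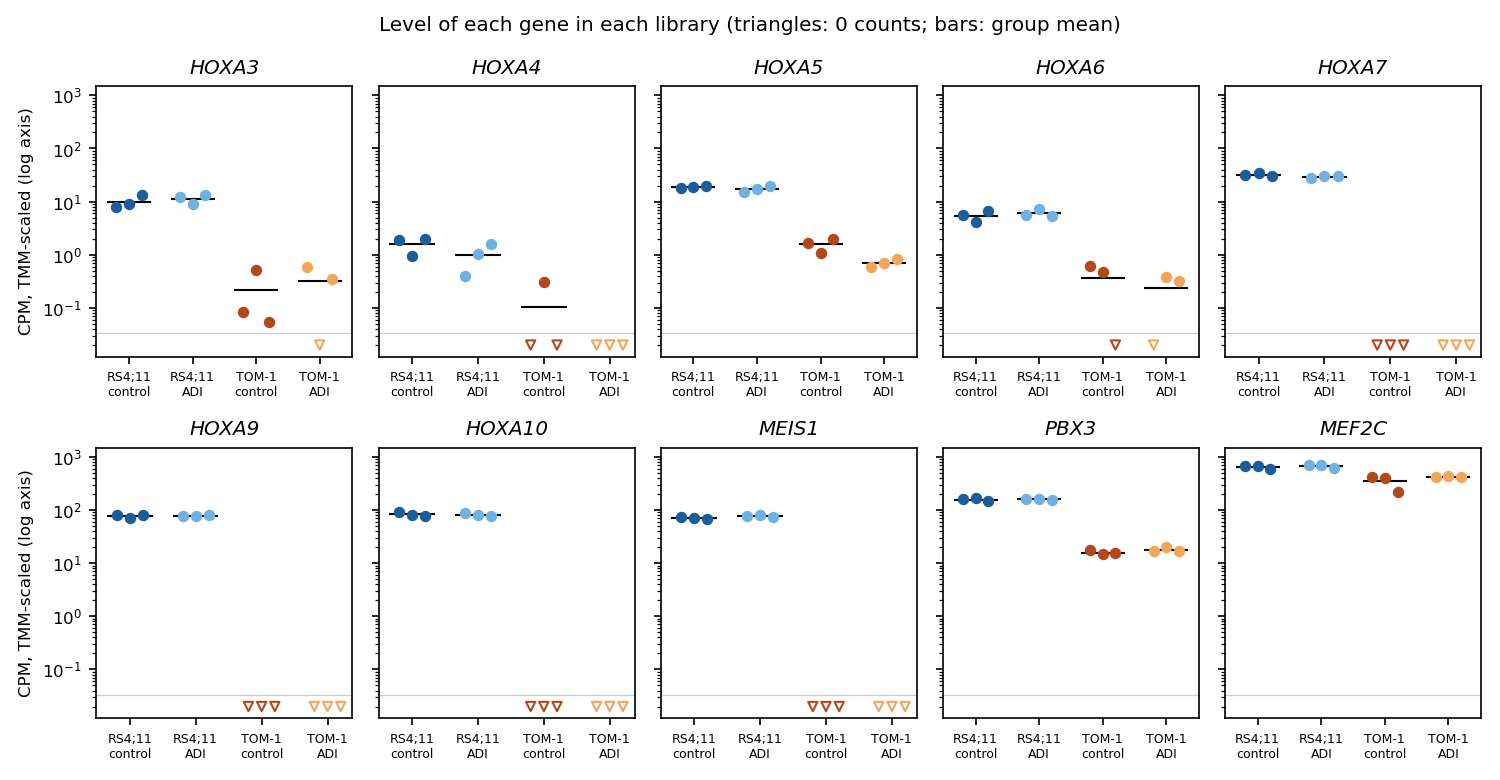
CPM of each gene (log axis, scaled by TMM) in the 3 libraries of each group, with bars at the group mean and open triangles for libraries with 0 counts. HOXA7, HOXA9, HOXA10 and MEIS1 have only triangles in TOM-1, whereas PBX3 and MEF2C have reads in every library and lie higher in RS4;11.

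HOXA9 (ENSG00000078399; chromosome 7, 27162435 to 27175180, minus strand; GENCODE 29, GRCh38) is the HOX gene most often tied to acute leukaemia. It stood at 79.8, 69.8 and 80.7 CPM in RS4;11 control replicates 1, 2 and 3, and at 76.2, 77.8 and 79.1 CPM in the treated ones. Every TOM-1 library was at 0, where a count of 0 allows up to 3 counts, or 0.08525 to 0.1655 CPM per library. Against that floor HOXA9 was at least 626-fold higher in RS4;11 in control culture and at least 646-fold higher with ADI-PEG20. HOXA10 (chromosome 7, 27170591 to 27180261), its neighbour with a like role in progenitors, stood at 91.7, 79.5 and 78.4 CPM in RS4;11 control and 86.7, 78.9 and 75.7 CPM in treated RS4;11. This was at least 679-fold and 668-fold above the TOM-1 floor. The control and treated RS4;11 libraries of both genes overlapped.

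MEIS1 (chromosome 2, 66433452 to 66573869, plus strand) encodes the TALE cofactor that acts with HOXA9 in leukaemia. Its RS4;11 libraries were at 72.8, 70.4 and 68.4 CPM in control and 77.4, 81.6 and 72.9 CPM with ADI-PEG20, at least 575-fold and 642-fold above the TOM-1 floor. It was the only one of the 10 genes whose treated RS4;11 libraries all lay above the controls, by the narrow margin between 72.8 and 72.9 CPM. Over all tested genes 7.72% did so, so 1 of 10 was near the background. HOXA7 stood at 31.3, 34.2 and 30.2 CPM in RS4;11 control and 27.7, 30.9 and 29.9 CPM in treated RS4;11, at least 260-fold and 245-fold above the floor. HOXA7 is a cluster gene that KMT2A fusions are also known to activate. In the annotation 62.5% of its exonic bases lie opposite exons of HOXA-AS3. Whether counting used strand is not given in the sources used here, so its level is uncertain. HOXA-AS3 had at most 191 counts in any library against at least 584 for HOXA7, which sets no bound on that uncertainty.

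HOXA3 to HOXA6 lie toward the 3′ side of the cluster. HOXA5, which takes part in myeloid and B-cell maturation, stood at 17.8, 18.7 and 19.6 CPM in RS4;11 control and at 1.65, 1.09 and 1.99 CPM in TOM-1 control. The difference was 11.9-fold (log2 3.57, SE 0.24, adjusted p = 2.65e-07), and log2 3.74 without TOM-1 control replicate 3. HOXA5 has no overlapping gene in the annotation. HOXA3 stood at 7.81, 9.19 and 13.1 CPM in RS4;11 control and at 0.0853, 0.507 and 0.0552 CPM in TOM-1 control, from 3, 13 and 1 counts (log2 5.49, SE 0.78, adjusted p = 1.45e-04). The size of that difference rests on TOM-1 control replicate 2, which held 13 of the 17 counts, and with it dropped the log2 difference was 7.01. With TOM-1 control replicate 3 dropped instead, the log2 difference of HOXA3 was 5.19. HOXA6 stood at 5.67, 4.12 and 6.60 CPM against 0.625, 0.468 and 0 CPM (log2 3.78, SE 0.78, adjusted p = 0.00252). Its log2 difference was 4.42 without TOM-1 control replicate 1 and 3.29 without replicate 3, the highest and lowest of the fits with 1 library dropped. In TOM-1 control replicate 3 no read of HOXA6 was counted. HOXA3 and HOXA6 entered the test only through their RS4;11 libraries, so their p-values carry no weight of their own. Of the exonic bases of HOXA6 39.3% lie opposite exons of HOXA-AS3. In RS4;11 control HOXA-AS3 had 133 to 189 counts against 100 to 138 for HOXA6. Without stated strand use the level of HOXA6 is therefore uncertain too.

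HOXA4 was the weakest of the 10 calls. It entered the test only through its RS4;11 libraries, so its p-values between the lines carry no weight of their own. It had 45, 23 and 41 counts in RS4;11 control and 0, 8 and 0 counts in TOM-1 control, and 0 in every treated TOM-1 library. The log2 difference in control culture was 3.88 (SE 1.24, adjusted p = 0.0349), and 3.42 without TOM-1 control replicate 3 (adjusted p = 0.0154). The call was lost in 6 of the 12 fits in which a single library was dropped, where its adjusted p reached 0.0912. These were the fits without any RS4;11 control library, without treated RS4;11 replicate 2 or 3, and without TOM-1 control replicate 1. Without TOM-1 control replicate 2, the library that holds the 8 counts, HOXA4 was at 0 in all remaining TOM-1 libraries, and the fitted value of 8.30 then depends on the prior count. Of its exonic bases 31.0% are shared with a same-strand gene that had 0 counts in every library. A further overlap, 16.3%, is with HOXA-AS2 and HOXA-AS3 on the opposite strand, which had 38 to 76 and 133 to 189 counts in RS4;11 control. Strand use is not stated, so the level of HOXA4 is uncertain.

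PBX3 (chromosome 9, 125747345 to 125967377, plus strand), the PBX partner most often raised with HOXA9, was expressed in both lines. It stood at 158.6, 166.3 and 147.5 CPM in RS4;11 control and 17.4, 14.6 and 15.3 CPM in TOM-1 control. The difference was 10-fold (log2 3.32, SE 0.13, adjusted p = 8.62e-09, and log2 3.30 without TOM-1 control replicate 3), and with ADI-PEG20 it was 8.89-fold. MEF2C (chromosome 5, 88717117 to 88904257, minus strand) differed least. It stood at 660, 683 and 602 CPM in RS4;11 control against 416, 406 and 221 CPM in TOM-1 control (log2 0.90, SE 0.19, adjusted p = 0.00323). The lowest of these was TOM-1 control replicate 3, without which the log2 difference was 0.66 (adjusted p = 1.39e-08), close to the 0.67 seen with ADI-PEG20.

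Levels of different genes were then compared as CPM per kb of annotated exon. In RS4;11 control the order was MEF2C at 55.2 ± 3.57, PBX3 at 34.8 ± 2.09, HOXA9 at 25.3 ± 2.00, HOXA10 at 22.4 ± 1.99, HOXA7 at 13.2 ± 0.868, HOXA5 at 10.9 ± 0.540, MEIS1 at 6.45 ± 0.199, HOXA6 at 4.25 ± 0.975, HOXA3 at 2.33 ± 0.638 and HOXA4 at 0.923 ± 0.330 CPM per kb (SD, n = 3). Only HOXA9 and HOXA10 overlapped among neighbours in that order. The lengths are unions of all annotated exons, 10934 bases for MEIS1 and 11755 for MEF2C, so genes with many annotated isoforms are placed low. Counts of the HOXA genes other than HOXA5 may also include reads of antisense genes, with the largest shared parts for HOXA7 and HOXA6. Of the exonic bases of HOXA9 and HOXA10, 15.9% and 9.9% are shared with same-strand genes that had 0 counts in every library. This adds to the uncertainty of their levels and of their ratio. With ADI-PEG20 the order of the means in RS4;11 was unaltered, and HOXA7 and HOXA5 were then the neighbours that overlapped. In TOM-1 control the order was MEF2C at 29.6 ± 9.33, PBX3 at 3.48 ± 0.326 and HOXA5 at 0.923 ± 0.265 CPM per kb, with the remaining HOXA genes at or below 0.284.

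The make-up of the 7 HOXA genes varied little among libraries of the KMT2A-rearranged line. Their sum ran from 216.4 to 235.9 CPM in RS4;11 control and from 221.8 to 224.7 CPM with ADI-PEG20. HOXA9 made up 31.9 ± 1.21% of the per-kb sum in control and 33 ± 0.13% in treated libraries (SD, n = 3), and HOXA10 made up 28.2 ± 2.09% and 27.9 ± 2.43%. The ratio of HOXA10 to HOXA9 per kb was 0.888 ± 0.0818 in control and 0.847 ± 0.0763 in treated libraries. In TOM-1 the 7 genes summed to 2.041 to 2.379 CPM in control and 1.069 to 1.495 CPM with ADI-PEG20, and HOXA5 made up at least 49.2% of the per-kb sum in every control library.

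The rest of the cluster was read in the same way. Of 10 neighbours described here 9 were tested, and 6 were higher in RS4;11 in control culture and 0 lower, where 18.4% and 16.2% of tested genes were (7 and 1 without TOM-1 control replicate 3). Those 6 all entered the test only through their RS4;11 libraries and could hardly fail to differ, so nothing is read from this count. HOXA2, near the 3′ end of the cluster, stood at 0.866 ± 0.396 CPM in RS4;11 control (SD, n = 3) and at 0 counts in TOM-1. HOXA11, on the other side of HOXA10, stood at 6.13 ± 1.57 CPM, at least 49.98-fold above the TOM-1 floor. The fall from HOXA10 to HOXA11 was from 22.4 to 2.66 CPM per kb, and HOXA13, next along, had 2 to 21 counts in RS4;11 control and 0 to 15 in TOM-1 control, which overlapped. EVX1, beyond HOXA13, was at 0 in every library.

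Of the antisense and noncoding transcripts of the cluster, HOXA10-AS, HOXA-AS2, HOXA-AS3 and HOTAIRM1 were called higher in RS4;11, and HOXA11-AS and HOTTIP were not. HOXA10-AS stood at 5.76 ± 0.640 CPM in RS4;11 control and at 0 in TOM-1. HOXA-AS2, HOXA-AS3 and the long noncoding RNA HOTAIRM1 stood there at 2.74 ± 1.02, 7.40 ± 1.80 and 0.803 ± 0.289 CPM. Without stated strand use these cannot be told apart from reads of the genes they overlap. HOXA11-AS was not called (log2 1.95, adjusted p = 0.267), with 2, 0 and 27 counts in TOM-1 control replicates 1, 2 and 3, and it was called higher in RS4;11 without replicate 3 (log2 5.70, adjusted p = 2.33e-04). HOXA11-AS entered the test only through RS4;11 libraries and HOTTIP only through TOM-1 libraries, so nothing is read from either call. HOTTIP, a noncoding RNA beside HOXA13, ran the other way. It had 0, 3 and 0 counts in RS4;11 control and 21, 18 and 0 in TOM-1 control (log2 -3.22, adjusted p = 0.144), and was called lower in RS4;11 without TOM-1 control replicate 3 (log2 -3.76, adjusted p = 0.0233). With ADI-PEG20 none of the neighbours was called in RS4;11. In TOM-1, HOXA-AS2 was called higher on 0, 3 and 6 counts against 0 in control, and HOXA11-AS was called lower on the 27 counts of control replicate 3 (adjusted p = 0.0403, and 0.206 without that library).

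**Figure D2:**
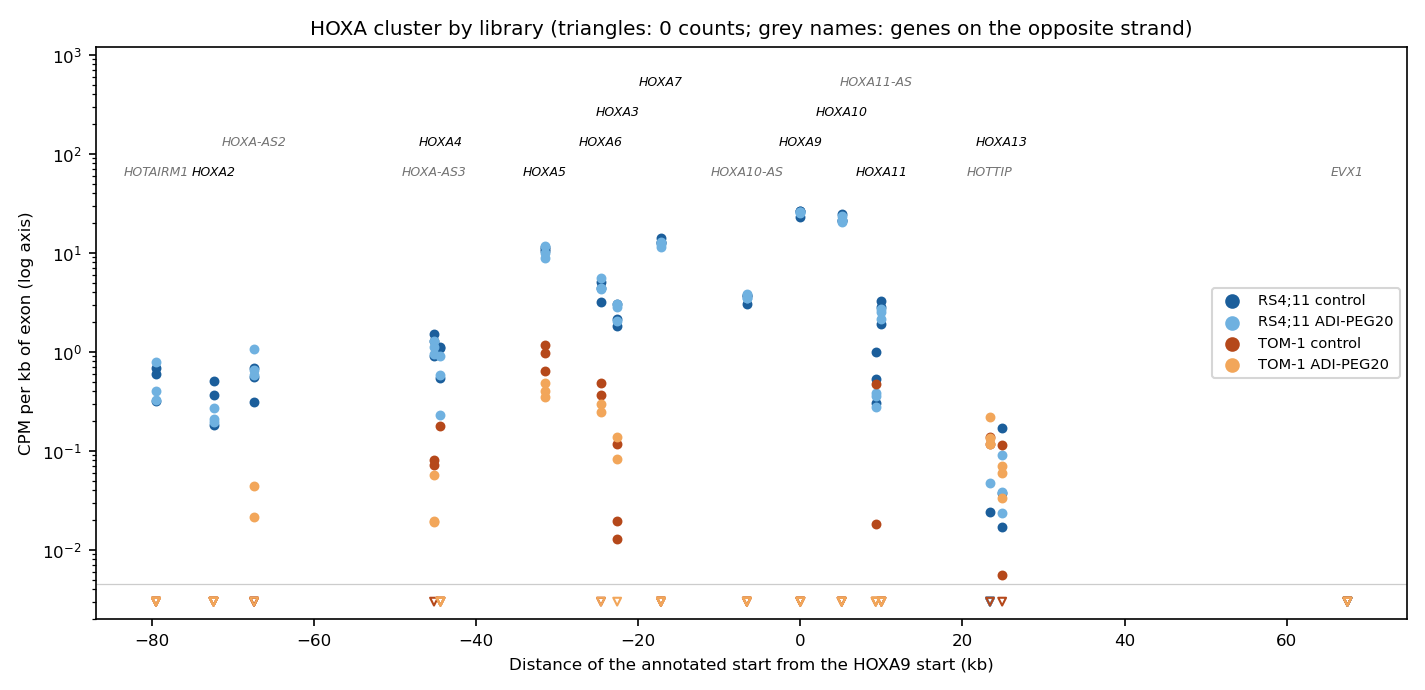
CPM per kb of exon (log axis) of the genes of the HOXA cluster in each library, coloured by group, with triangles for 0 counts. The horizontal axis is the distance in kb of each annotated start from the HOXA9 start. Each start is the outermost annotated end of the gene, so HOXA3 is placed at -22.6 kb, between HOXA6 and HOXA7. The HOXA9 start used here is not the one in the printed promoter window. In RS4;11 the levels are highest at HOXA9 and HOXA10, vary up and down from there to HOXA2 and are low at HOXA13, and TOM-1 points lie below them from HOXA2 to HOXA11 where they are above 0 at all, apart from 1 TOM-1 control library for HOXA11-AS.

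The second comparison asked whether ADI-PEG20 moved these genes in RS4;11. None of the 10 was called, at an adjusted p of 1 each, where 0% of 17349 tested genes were called. At an unadjusted p under 0.05 there were 0 of the 10 and 325 of all genes (1.87%). Fitted log2 changes were 0.02 for HOXA9, -0.05 for HOXA10, -0.11 for HOXA7, 0.13 for MEIS1, 0.01 for PBX3 and 0.04 for MEF2C. The 95% intervals of HOXA9, HOXA10, MEIS1 and PBX3 together ran from 0.7775-fold to 1.341-fold, so larger changes lay outside them.

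The width of these intervals depended on the libraries in the fit, since the spread was shared over all groups. Without TOM-1 control replicate 3 the intervals of the same 4 genes lay within 0.8464-fold to 1.242-fold. In that fit 58 of 18321 genes (0.317%) were called in RS4;11, and 0 of the 10. From that line's 6 libraries alone they lay within 0.8593-fold to 1.225-fold, and the smallest unadjusted p among the 10 was 0.0877, for MEIS1 (log2 interval -0.02 to 0.29). HOXA3, HOXA4 and HOXA6, with fewer reads, had intervals from 0.1207-fold to 3.187-fold in the fit on all libraries and from 0.275-fold to 1.576-fold from RS4;11 alone. For each of the 3 a change of 1.5-fold in at least 1 direction lay inside even the second interval, so it was not detectable at this depth. DESeq2 and the other settings also called 0 of the 10.

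**Figure D3:**
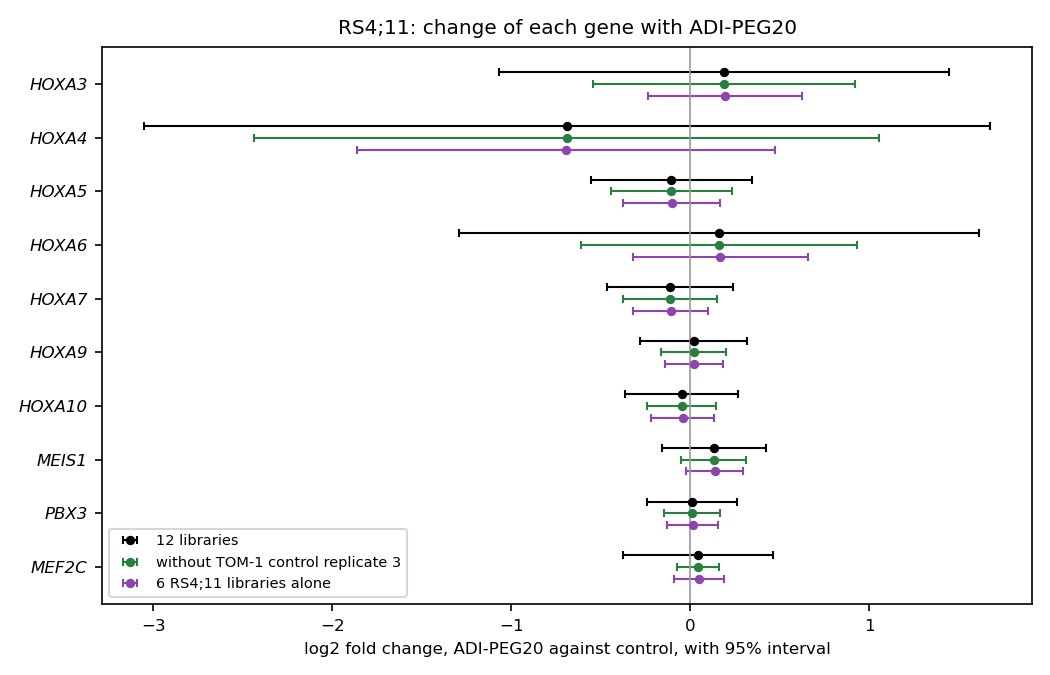
Log2 fold change with ADI-PEG20 in RS4;11 and its 95% interval for each gene, from all 12 libraries, without TOM-1 control replicate 3, and from the 6 RS4;11 libraries alone. Every interval spans 0, the intervals are narrow for HOXA9, HOXA10, MEIS1, PBX3 and MEF2C, and they are wide for HOXA4.

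In TOM-1 the same treatment changed many genes, and 1 of the 10 fell. HOXA5 stood at 1.65, 1.09 and 1.99 CPM in control and at 0.599, 0.687 and 0.826 CPM with ADI-PEG20, from 58, 28 and 36 counts against 14, 18 and 21. It fell by 1.14 on the log2 scale (SE 0.26, adjusted p = 0.00534), where 15.9% of tested genes were called lower. All treated libraries lay below all controls, in the direction of 20.1% of tested genes. With any single library dropped its adjusted p lay between 0.0013 and 0.0248. Fitted on the 6 TOM-1 libraries alone, the fall was not called (log2 -1.19, adjusted p = 0.172).

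PBX3 was not called in TOM-1 (log2 0.18, 95% interval -0.08 to 0.44, adjusted p = 0.294), with control libraries at 14.6 to 17.4 CPM and treated ones at 16.6 to 19.9 CPM. MEF2C was not called either (log2 0.28, interval -0.14 to 0.69). Its treated libraries stood at 422, 430 and 412 CPM, and without TOM-1 control replicate 3, at 221 CPM, the change was 0.03. HOXA3 (0.51) and HOXA6 (-0.72) had at most 22 counts in any TOM-1 library and overlapping groups. HOXA4 went from 8 counts in 1 control library to 0 in treated TOM-1. It was not called with all libraries (adjusted p = 0.118) and was called lower without TOM-1 control replicate 3 (adjusted p = 0.0376), where 19.8% of tested genes were. Treated TOM-1 had no read of HOXA7, HOXA9, HOXA10 or MEIS1, so none of these genes was detected after 24 h of ADI-PEG20.

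The difference of the ADI-PEG20 effect between the lines was tested directly. It was called for 0 of the 10 genes, where 11.9% of tested genes were called. At an unadjusted p under 0.05 there was 1 of the 10, HOXA5, against 27.3% of tested genes. The HOXA5 effect in RS4;11 minus that in TOM-1 was 1.04 on the log2 scale (SE 0.33, adjusted p = 0.0601). It was called by DESeq2 (1.08, adjusted p = 0.0333), when TOM-1 control replicate 2 was dropped (1.28, adjusted p = 0.0157) and when replicate 3 of those controls was dropped (0.87, adjusted p = 0.0464, where 30.4% of tested genes were called). For PBX3 the difference was -0.17 (95% interval -0.53 to 0.20) and for MEF2C -0.23 (-0.82 to 0.36). For HOXA7, HOXA9, HOXA10 and MEIS1 no difference of effects can be sized, since TOM-1 had no reads.

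**Figure D4:**
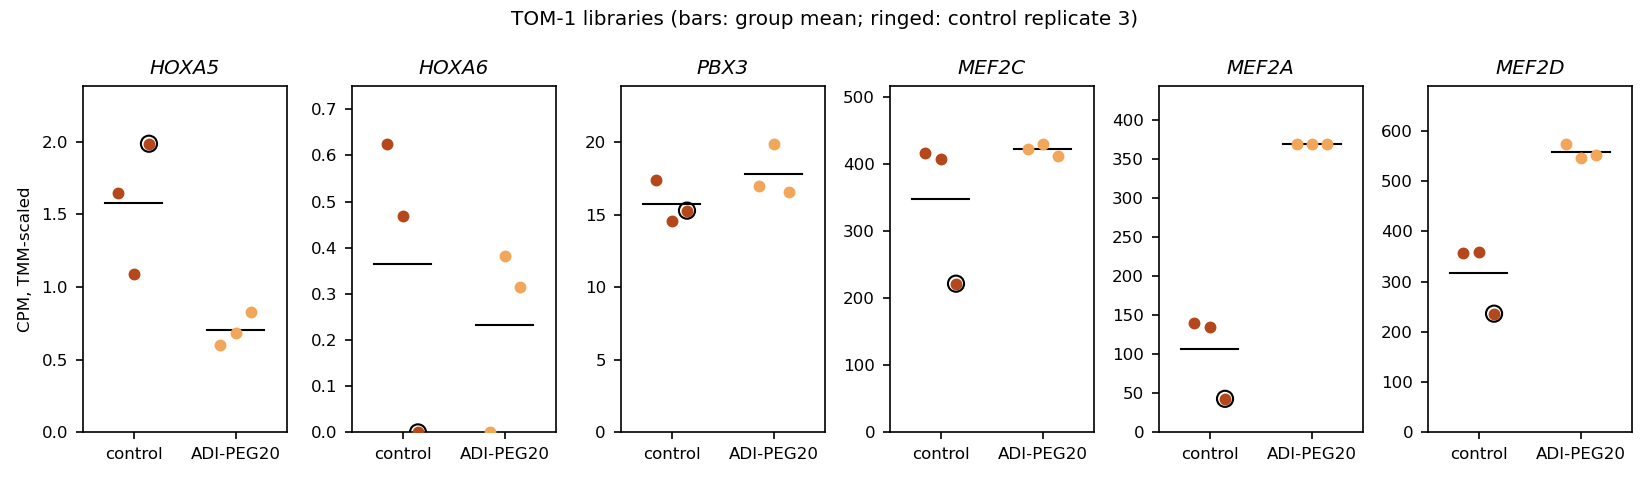
CPM (linear axis from 0, scaled by TMM) of HOXA5, HOXA6, PBX3 and MEF2C, and of the related MEF2A and MEF2D, in TOM-1 control and treated libraries, with bars at the group mean and a ring on control replicate 3. HOXA5 is lower in all treated libraries and MEF2A and MEF2D are higher, and control replicate 3 is the lowest library for MEF2C, MEF2A and MEF2D.

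In the other HOX clusters the differences between the lines ran both ways. Of their 28 genes 16 were at 0 in every library and 6 were tested, of which 2 were higher and 3 lower in RS4;11 control, where 18.4% and 16.2% of tested genes were. The higher genes were HOXC6 and HOXC4, HOXC6 at 4.21 CPM against 0 and HOXC4 at 15.6 against 7.18 CPM. HOXB7, HOXC11 and HOXC9 were lower, with 1.16, 0.761 and 1.204 CPM in TOM-1 control and at most 0.1001 CPM in RS4;11 control. Apart from HOXC4, the called genes were at or near 0 in the control libraries of the line where they were lower. They could hardly fail to differ once tested, so nothing is read from these counts. None of the 6 was called with ADI-PEG20 in either line, and in the fit lacking TOM-1 control replicate 3, 2 of 8 tested were called higher in treated TOM-1, where 21.8% of tested genes were.

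Of 8 other TALE cofactors described here 6 were tested, and MEIS3 was at 0 in every library. MEIS2, a close relative of MEIS1, had 9.62 ± 1.15 CPM in RS4;11 control and 0 in TOM-1, at least 78.5-fold higher. TGIF1, a TALE repressor, was lower in RS4;11 (25.3 ± 4.55 against 47.2 ± 1.08 CPM, SD, n = 3, log2 -0.90, adjusted p = 1.72e-04). PBX2 stood at 84.4 CPM in RS4;11 control and 101 CPM in TOM-1 control and was not called (log2 -0.26, adjusted p = 0.131), and with TOM-1 control replicate 3 dropped PBX2 was lower in RS4;11 (-0.37, adjusted p = 1.91e-04). TGIF1 rose with ADI-PEG20 in TOM-1 (log2 0.71, adjusted p = 0.0016), and none of the 6 tested cofactors was called in RS4;11.

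The relatives of MEF2C were read beside it. MEF2D was lower in RS4;11 than in TOM-1 in control culture (log2 -0.50, adjusted p = 0.019), and MEF2A was not called (0.57, adjusted p = 0.189). Without TOM-1 control replicate 3 MEF2A was called higher in RS4;11 (log2 0.20, adjusted p = 0.0270), where 27.5% of tested genes were. With ADI-PEG20 in TOM-1, MEF2A rose from 43.04 to 140.1 CPM in control libraries to 369.1 to 369.9 CPM in treated ones (log2 1.80, SE 0.32, adjusted p = 0.00152). MEF2D rose by 0.81 (SE 0.15, adjusted p = 0.00143). Without TOM-1 control replicate 3 the changes were 1.42 and 0.64, and both were still called. In the other line they were 0.15 and -0.04 and were not called, and the difference between the lines was called for both genes.

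Other known targets of KMT2A fusions were read from a list of 22 genes, all of them tested. In control culture 11 were higher and 3 lower in RS4;11, where 18.4% and 16.2% of tested genes were. The median log2 difference was 0.65, against -0.01 over all tested genes. The 5 with the largest fitted differences were PROM1, EYA1, CPEB2, RUNX2 and CSPG4. PROM1, the stem-cell surface protein CD133, stood at 407.1 ± 26.7 CPM in RS4;11 control and 0.597 ± 0.344 CPM in TOM-1 control (SD, n = 3). CSPG4, which encodes the NG2 antigen used to recognise KMT2A-rearranged leukaemia, stood at 159.5 ± 6.85 against 12.4 ± 1.72 CPM. RUNX2 stood at 41.8 against 1.49 CPM and CPEB2 at 52.4 against 1.01 CPM, and EYA1 at 0.941 CPM against 0 counts. The place of EYA1 depends on the prior count of the fit, since it was only at least 7.68-fold higher, against 12.9-fold for CSPG4. Without TOM-1 control replicate 3, 13 of the 22 were higher and 5 lower, where 27.5% and 25.4% of tested genes were. The median log2 difference was then 0.43, against 0.0071 over all tested genes.

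In RS4;11, 0 of these 22 targets was called with ADI-PEG20, and the median change was 0.10, against 7e-04 over all tested genes. In 8 of the 22 all treated libraries lay above all controls, a larger share than the 7.72% of tested genes that did so. In 0 of the 22 they all lay below, against 9.05% of tested genes. The reason was not tested. In TOM-1, 8 rose and 3 fell, where 15.9% of tested genes did each, and 11 rose and 6 fell without control replicate 3, where 21.8% and 19.8% did. CSPG4 and CDKN2C, a cell-cycle inhibitor, fell by 2.13 and 1.46 on the log2 scale, and by 2.24 and 1.25 without that library. CPEB2, ZEB2 and JMJD1C rose by 1.62, 1.53 and 1.35, and by 1.16, 1.17 and 0.90 without control replicate 3.

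**Figure D5:**
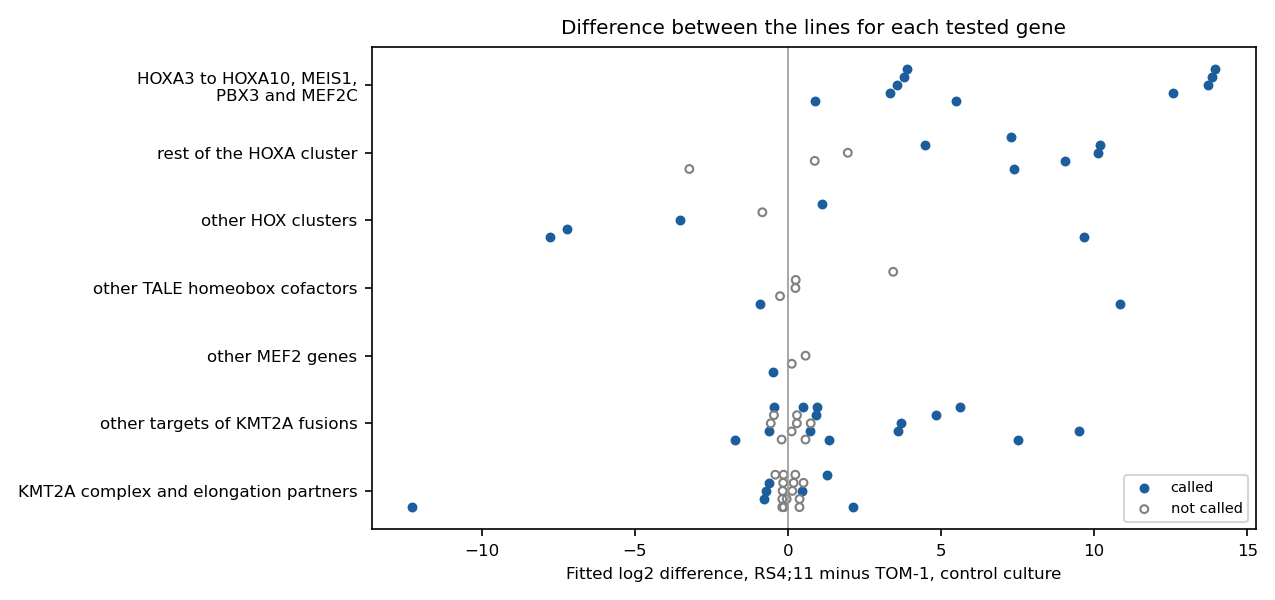
Fitted log2 difference between RS4;11 and TOM-1 in control culture for each tested gene of 7 gene lists, filled where called. Values beyond about 7 in either direction belong to genes at or near 0 counts in 1 line and depend on the prior count of the fit. HOXA genes, MEIS1, PBX3 and MEF2C all lie to the right of 0, whereas KMT2A complex genes scatter around it except MLLT3 at the far left.

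The machinery that KMT2A works with was described from 21 genes of its complex and of transcript elongation, all tested. In control culture 3 were higher and 4 lower in RS4;11, and 5 higher and 10 lower without TOM-1 control replicate 3, against 34.7% and 52.8% of tested genes called. MLLT3, a reader of acetylated histones and a frequent fusion partner of KMT2A, was at 0 counts in all RS4;11 libraries and at 25.7 ± 2.17 CPM in TOM-1 control, at least 194.8-fold higher there. AFF1, the fusion partner in RS4;11, was higher there at 201.6 ± 19.8 against 83.4 ± 43.4 CPM (SD, n = 3, log2 1.27, and 0.90 without TOM-1 control replicate 3). KMT2A itself, named outside the rule as the gene rearranged in RS4;11, stood at 119.4 ± 8.22 against 108.1 ± 59.0 CPM and was not called (log2 0.14). Without that library it was lower in RS4;11 (-0.25, adjusted p = 0.00386). Counts per gene do not separate a fusion transcript from the partners' own transcripts. ELL2 was higher in RS4;11 (log2 2.14, the highest of the 21), and MEN1 and CDK9 were lower (-0.80 and -0.70). The highest log2 difference among the 21 was 1.73 without TOM-1 control replicate 3. Values of MEN1 and CDK9 without that library are not given here.

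With ADI-PEG20, 0 of the 21 complex genes was called in RS4;11, and AFF4 alone was called without TOM-1 control replicate 3 (log2 0.36, adjusted p = 0.0255). In TOM-1, 6 rose and 5 fell, where 15.9% of tested genes did each, and 9 rose and 7 fell without that library, where 21.8% and 19.8% did. KMT2A rose there by 1.23 (SE 0.34, adjusted p = 0.016), AFF4, ELL2 and MLLT10 rose by 1.57, 1.498 and 1.18, and WDR5 fell by 0.86. Without that library KMT2A, AFF4, ELL2 and MLLT10 rose by 0.84, 1.13, 1.08 and 0.82 and WDR5 fell by 0.74, and all 5 were still called. HOXA7, HOXA9, HOXA10 and MEIS1 had 0 counts in the same treated libraries.

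Genes with a pattern near that of HOXA9 were found by the mean absolute difference of log2 CPM over the 12 libraries. MEIS1 (0.049) and HOXA10 (0.059) lay close to it and HOXA7 was farther off (0.66). Outside the 10 genes the nearest were WDR11 (0.048), EFEMP1 (0.074), S100A10 (0.16), ARHGAP32 (0.18) and CD44 (0.20). WDR11 stood at 71.8 ± 5.46 CPM in RS4;11 control and 80.4 ± 4.62 CPM with ADI-PEG20 (SD, n = 3), and the first 4 had 0 counts in every TOM-1 library. CD44, an adhesion receptor, had at most 3. This measure ranks any gene that is at 0 in TOM-1 and near the HOXA9 level in RS4;11 as alike.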

How the data were processed

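Poly(A) RNA-seq of 12 libraries was analysed, with 3 libraries in each of 4 groups taken from the sample titles. The authors deposited 1 table of raw counts per gene for 60664 genes. STAR, SAMtools, featureCounts and hg38 are named in the submitters' processing notes, and their versions, the gene annotation and the strand setting are not given in the sources used here. Totals ran from 18958144 to 35956959 counts per library, and no pair of replicates agreed within sampling noise (chi-square per degree of freedom at least 4.93).

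The 10 genes and all gene lists were chosen with earlier results of these data known. Counts were scaled by TMM and tested with edgeR 4.0.16 (R 4.3.3): a filter on low counts (filterByExpr), a quasi-likelihood fit of 4 group means on all 12 libraries, and Benjamini-Hochberg adjustment over 17349 genes at 0.05. Bounds on folds set libraries at 0 to 3 counts each. These floors and all fitted intervals (95%) cover counting error and the spread between these libraries. Positions and exon lengths are from GENCODE 29, and promoters from RefSeq on GRCh38.p14. Tests were checked on simulated data.

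Alternatives were DESeq2 1.42.0 (Wald test, and its size factors in edgeR), upper-quartile scaling, no filter, a mean of at least 10 counts, a replicate block, the compared libraries alone, and each library left out. Named genes were the 10, the neighbours in the HOXA cluster, up to 5 called genes per other list and comparison with the largest log2 change, and the 5 genes nearest to HOXA9. Some genes of the lists are not reported here. Figures used matplotlib 3.10.9.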

Additional observations from a re-analysis of the deposited data

Results flagged for a closer look

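The ADI-PEG20 effect differed between the lines for 10 genes by the edgeR test of the difference of log2 fold changes. It is given here as RS4;11 minus TOM-1. The lists searched left out the other HOX clusters and the cell type markers, and held 10, 9, 6, 3, 22 and 21 tested genes. Over all tested genes 11.9% were called, so the count of 10 is not read as a result. Of the markers left out, 1 B-lineage and 2 myeloid genes were also called. None of the 10 flagged genes was called in RS4;11. Without TOM-1 control replicate 3 the difference was still called for all 10, where 30.4% of tested genes were.

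Differences below 0 were found for MEF2A (-1.65, adjusted p = 0.0341) and MEF2D (-0.85, adjusted p = 0.02) of the MEF2 family, RUNX2 (-1.06, adjusted p = 0.0406), MYB (-1.27, adjusted p = 0.00365), IGF2BP2 (-0.77, adjusted p = 0.0174) and SOCS2 (-0.47, adjusted p = 0.049) of the KMT2A-fusion targets. Each of these 6 rose in TOM-1. MYB went from 716.9 ± 160.2 to 1715 ± 56.0 CPM there (SD, n = 3) and from 523.7 ± 51.8 to 519.6 ± 27.0 CPM in RS4;11.

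Differences above 0 were found for CSPG4 (2.09, adjusted p = 5.89e-04), CDKN2C (1.45, adjusted p = 0.00159), HMGA2 (0.97, adjusted p = 0.0349) and WDR5 (0.71, adjusted p = 0.0184), a subunit of the KMT2A complex. Each of these 4 fell in TOM-1. CSPG4 went from 12.4 ± 1.72 to 2.84 ± 0.803 CPM there (SD, n = 3) and from 159.5 ± 6.85 to 155.3 ± 9.48 CPM in RS4;11.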

How the results depend on the processing

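Over up to 19 alternative settings per comparison, the single-gene results kept their direction and side of the threshold in 761 values, 9 lost the call, 4 gained it and 13 turned sign, all 13 uncalled and with 1 library left out. The 9 were HOXA4 between the lines in control culture (8, among them the replicate block and the compared libraries alone) and HOXA5 in TOM-1 from the 6 TOM-1 libraries alone (adjusted p = 0.172). The 4 gained were HOXA5 for the difference of effects (DESeq2, without TOM-1 control replicate 2 or 3) and HOXA4 in TOM-1 without control replicate 3. The number of the 10 genes called ran over fits that each left out 1 library from 9 to 10 between the lines in control, 10 to 10 with ADI-PEG20, 0 to 0 in RS4;11, 1 to 2 in TOM-1 and 0 to 1 for the difference. It was 0 in TOM-1 from those 6 libraries alone and 1 for the difference with DESeq2. All genes called ran over the same fits from 4731 to 9681 between the lines in control, 0 to 58 in RS4;11, 3960 to 7616 in TOM-1 and 1169 to 5567 for the difference, and the highest value was each time that without TOM-1 control replicate 3. DESeq2 called 3228 genes for the difference, and fits on the compared libraries alone called 3548 between the lines in control, 3 in RS4;11 and 2639 in TOM-1. Their cause was not tested. Same-numbered replicates deviated together too little to count as pairs (correlations -0.062 to 0.145), and the replicate block called 9, 10, 0, 1 and 0 of the 10 genes in the 5 comparisons, with HOXA4 lost in control (log2 4.40, adjusted p = 0.0551). Over fits with 1 library left out, the log2 change in RS4;11 that turned sign ran from -0.0055 to 0.3211 for HOXA6, -0.0458 to 0.0583 for HOXA9, -0.1 to 0.0386 for HOXA10, -0.0356 to 0.0504 for PBX3 and -0.0068 to 0.0937 for MEF2C. That of HOXA3 in TOM-1 ran from -0.3211 to 1.9487, and the difference of effects from -1.7615 to 0.5205 for HOXA3, -0.6918 to 4.2763 for HOXA4 and -0.348 to 0.0106 for MEF2C. HOXA4 has no reads in TOM-1 without control replicate 2, so no change there can be given. The value of -0.6918 for HOXA4 comes from that fit, so it sizes no difference of effects and its turn of sign is not read. Depth limits HOXA3, HOXA4 and HOXA6, which had at most 22 counts in any TOM-1 library.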
